A study of Mus musculus with 6 samples.

Results

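Most Zfp genes encode proteins with C2H2 zinc fingers, small zinc-binding folds that mostly read DNA and in some proteins bind RNA, while 8 members had 0 fingers of this pattern in their predicted protein. Members were taken by their names: protein-coding genes of the mouse annotation GENCODE M21 called Zfp and a number, leaving out Zfp42 and Zfp57. This gave 280 genes of the 12149 genes with values. The annotation holds 363 genes under the same rule, so 77.1% of them had values, and the others are not analysed here.

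RNA of 6 single blastocysts of the C57BL/6 background was sequenced at embryonic day 3.5, about 96 h after zygotes had received 2 ng/µl of small RNAs purified from sperm. In the Dep group (3 embryos) the donors of sperm were males in which stress had induced a depressive state. In the Ctl group (3 embryos) they were normal males, so embryos of both groups carried injected sperm small RNA. All were cultured in M16 and then in a potassium-supplemented simplex optimized medium. Shared parents, injection days and the number of sperm donors are not given in the labels, so p-values measure only the spread between these embryos.

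The largest class of Zfp genes in mammals carries a KRAB domain at the start of the protein. The fingers bind a DNA sequence, often one inside a retroelement, and the KRAB domain recruits the co-repressor Trim28, which brings the histone methyltransferase Setdb1 and heterochromatin proteins to that place. KRAB genes lie in clusters of recent duplicates, and several act in the early embryo, where they keep endogenous retroviruses silent and protect the methylation marks of imprinted genes. Zfp genes without the domain have unrelated roles, from transcription of pluripotency genes to ribosome quality control.

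Values are normalized counts, that is reads divided by a size factor for each library. Reads in listed genes numbered 16543356 to 21548220 per library. Dep 1 differed from the rest in its zeros: 691 listed genes had no read in it, and 5 to 106 had none in each of the other libraries. Of the 280 Zfp genes, 14 were at 0 in Dep 1 (5%), while Dep 2, Dep 3, Ctl 1, Ctl 2 and Ctl 3 had 0, 1, 2, 1 and 3. The labelled tissue was checked by summed lineage markers. The 6 trophectoderm markers summed to 40210 to 101000 normalized counts in Dep and 46220 to 71430 in Ctl, the 6 epiblast markers to 5673 to 12530 in Dep and 6791 to 10020 in Ctl, and the 6 primitive endoderm markers to 3404 to 10570 in Dep and 6978 to 8353 in Ctl. Dep 1 had the lowest epiblast and primitive endoderm sums and the highest trophectoderm sum of the 6 embryos. These sums rest on a few abundant genes, Gata6 for primitive endoderm and Krt8 and Krt18 for trophectoderm. The median primitive endoderm marker had 35.8, 712.5 and 922.3 in Dep, against 358, 716.4 and 25.6 in Ctl, so Ctl 3 was lowest. In Ctl 3 Gata4 was at 0 and Sox17 at 0.883, while Gata6 was at 6402. For 1 of the 6 trophectoderm markers, Tfap2c, Dep 1 was lowest. Of 8 cumulus and granulosa markers and 3 blood markers 0 had values, and of 6 oocyte markers 1 did. Whole embryos were lysed, so fewer cells of a type and less RNA per cell cannot be told apart.

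Most Zfp genes were present at modest levels in the blastocyst. Their median was 230.2 normalized counts, against 476.6 over all genes. Per length, in RPKM (reads per kilobase of exon, scaled to library depth), the median Zfp gene stood at 2.83 and the median gene at 6.02. A KRAB motif was found in the predicted protein of 167 members. These had a median of 2.57 RPKM, and the 113 members without the motif had 3.24. Members predicted to hold 10 or more fingers (160 genes) had a median of 2.04 RPKM, and those with 1 to 4 fingers (37 genes) 5.75. At the ends of this range were Zfp706 at 145.6 RPKM and Zfp619 at 0.203.

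Low levels went with a wide spread between embryos. Among members with a mean under 100 normalized counts (69 genes) the median within-group SD was 1.3 on the log2 scale. It was 0.644 for the 146 members from 100 to 500 counts and 0.434 for the 65 members of 500 or more. Over all genes the same 3 bands had 1.23, 0.628 and 0.4. Of the Zfp genes 24.6% lay in the lowest band, against 20.9% of all genes.

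The question put to these embryos is whether sperm small RNA of stressed males alters expression after injection. For the Zfp genes, the test found 0 of 280 past the threshold (limma, adjusted p under 0.05, smallest adjusted p = 0.9997), and over all genes 0% were called. Under an unadjusted p of 0.05 there were 6 members (2.14%), 4 higher and 2 lower in Dep, where 1.85% of all genes were under it (0.831% higher, 1.02% lower). In edgeR 0 members were called and 4 were under an unadjusted p of 0.05, where 1.74% of all genes were. DESeq2 gave the same counts of members, where it called 0.00823% of all genes and put 2.3% under that p. The authors' deposited table put 0 members under an adjusted p of 0.05 and 4 under an unadjusted p of 0.05. Shares over all genes were not taken from that table, so its 4 members cannot be set against them.

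Of the members, 131 had a higher and 149 a lower mean log2 level in Dep, which is 46.8% higher, against 48.2% of all genes. The median log2 fold was -0.065 for Zfp genes and -0.017 for all genes. Its sign is not fixed: the Zfp median was 0.035 after quantile normalization, with 145 members higher, and 0.057 without Dep 1, with 151 higher. Embryos of the groups did not overlap for 20 members (7.14%), and for 6.9% of all genes. Of these members 11 were higher and 9 lower in Dep, where the shares over all genes were 3.09% higher and 3.8% lower. A difference of over 2-fold in either direction was seen in 43 members (15.4%) and in 12.2% of all genes, while 69.6% of members and 75.9% of all genes lay within 1.5-fold.

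**Figure D1:**
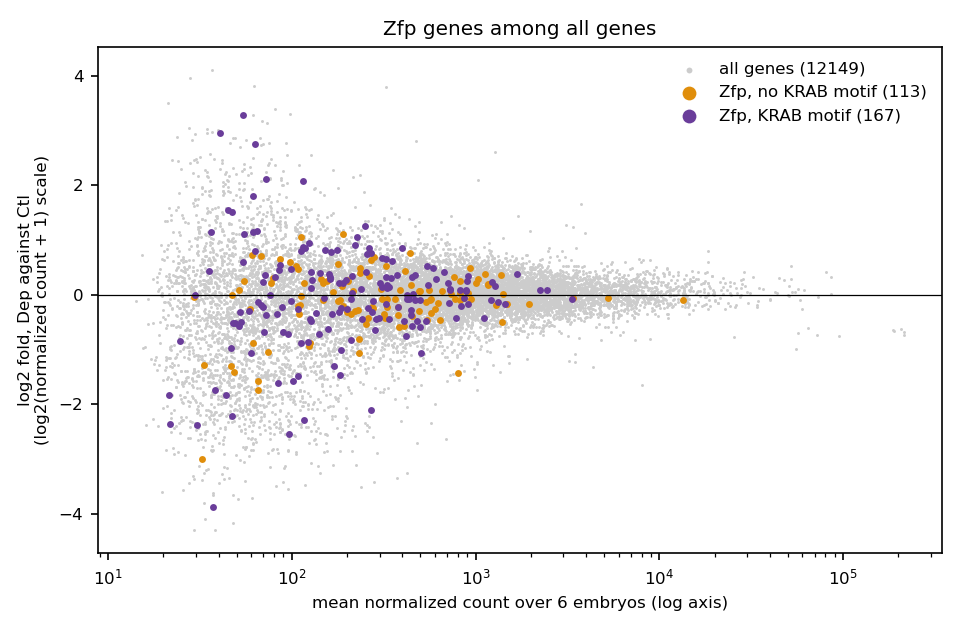
Log2 fold of Dep against Ctl (vertical axis, on the log2(normalized count + 1) scale) by mean normalized count over the 6 embryos (horizontal log axis), with all 12149 genes in grey, 113 Zfp genes without a KRAB motif in orange and 167 with it in purple. Folds of Zfp genes run from -3.88 to 3.28, and those far from 0 sit mostly at low counts, as for all genes.

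Members with and without the KRAB motif are given side by side, and the difference between these classes was not tested. All 6 members under an unadjusted p of 0.05 (limma) carried the motif, which is 3.59% of KRAB members, against 1.85% of all genes. In edgeR and in DESeq2 the 4 members under that p also carried the motif, where 1.74% and 2.3% of all genes were under it. The split was less marked in some other settings. With the replicate number as a block 5 KRAB members and 1 other were under that p, where 3.46% of all genes were. Without Dep 3 there were 3 of each, where 576 of 12149 genes were under it. Groups did not overlap for 14 KRAB members (8.38%), for 6 of the others (5.31%) and for 6.9% of all genes. Over 2-fold differences were seen in 32 KRAB members (19.2%), 11 others (9.73%) and 12.2% of all genes. The median log2 fold was -0.012 for KRAB members and -0.078 for the others. It was 0.060 for KRAB members under quantile normalization, and was 0.104 for the others without Dep 1. The median within-group SD was 0.68 on the log2 scale for KRAB members and 0.548 for the others, whose levels were also higher.

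The stretch of coding sequence around the KRAB motif follows for the members that the results turn on: the 4 of highest RPKM from the chromosome 4 cluster, and the 3 KRAB members of smallest p. Each run is 75 bases, 5′ to 3′ on the coding strand, from GENCODE M21 transcripts (GRCm38), and capitals mark the codons that matched the motif.
Zfp978: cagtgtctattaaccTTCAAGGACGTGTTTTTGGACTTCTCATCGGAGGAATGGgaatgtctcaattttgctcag
Zfp979: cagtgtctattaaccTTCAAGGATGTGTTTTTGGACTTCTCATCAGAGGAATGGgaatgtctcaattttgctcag
Zfp985: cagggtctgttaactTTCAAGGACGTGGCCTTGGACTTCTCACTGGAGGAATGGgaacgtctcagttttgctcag
Zfp984: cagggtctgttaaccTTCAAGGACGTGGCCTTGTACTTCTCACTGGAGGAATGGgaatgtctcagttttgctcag
Zfp948: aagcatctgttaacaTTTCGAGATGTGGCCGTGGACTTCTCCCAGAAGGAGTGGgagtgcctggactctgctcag
Zfp940: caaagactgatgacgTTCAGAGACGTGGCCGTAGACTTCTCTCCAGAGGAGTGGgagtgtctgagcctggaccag
Zfp74: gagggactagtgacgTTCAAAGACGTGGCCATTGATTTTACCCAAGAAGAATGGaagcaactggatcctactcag
Zfp978 and Zfp979 shared 73 of the 75 bases, and Zfp985 and Zfp984 shared 72. Zfp978 and Zfp985 shared 65. Between Zfp940 and Zfp74, of the same cluster on chromosome 7, 48 bases were identical, and between Zfp948 and Zfp940 51 were.

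The smallest p was that of Zfp948 (ENSMUSG00000067931), a KRAB member with 15 predicted fingers at 21567008 to 21588699 on chromosome 17, plus strand (GRCm38, as for all positions here). It had 29.1, 151 and 188 normalized counts in Dep 1, 2 and 3, against 291, 503.5 and 461 in Ctl 1, 2 and 3. All 3 Dep embryos lay below all 3 Ctl embryos, and Dep 1 was lowest. The log2 fold was -2.10 ± 0.69 (SE; limma, unadjusted p = 0.012, adjusted p = 0.9997), and it was -1.27 without Dep 1.

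Zfp940 (ENSMUSG00000050855) and Zfp74 (ENSMUSG00000059975) lie in 1 cluster on the minus strand of chromosome 7, at 29833620 to 29853669 and 29930815 to 29954089. Zfp940, with 10 predicted fingers, had 89.8, 94.3 and 134 normalized counts in Dep, against 43.8, 12.5 and 5.29 in Ctl. Zfp74, with 18 predicted fingers, had 158, 70.5 and 126 in Dep, against 21.3, 33.4 and 22.1 in Ctl. For both genes the groups did not overlap, and every Dep embryo was higher. The log2 folds were 2.75 ± 0.99 for Zfp940 and 2.12 ± 0.78 for Zfp74 (SE; limma, unadjusted p = 0.019 and 0.0211, adjusted p = 0.9997 for each). Their cluster holds 12 members between 29.77 and 30.17 Mb, of which 6 were higher and 6 lower in Dep. Without Dep 1, 10 were higher and 2 lower, and without Ctl 3, 5 were higher and 7 lower. Zfp420 and Zfp27, which lie between Zfp940 and Zfp74, had log2 folds of 1.11 and -0.89 (limma, adjusted p = 0.9997 for each).

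Zfp456 (ENSMUSG00000078995), on chromosome 13 at 67362113 to 67375810, had 127, 73.5 and 70.8 normalized counts in Dep, against 33.1, 0 and 21.2 in Ctl. The groups did not overlap, and the log2 fold of 3.28 ± 1.42 (SE; limma, unadjusted p = 0.0425, adjusted p = 0.9997) was 1.68 without Ctl 2, the embryo at 0. Its coding sequence is 94.1% identical to that of Zfp455, so how the authors' counting shared reads between them bears on the value.

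Zfp141 (ENSMUSG00000092416), on chromosome 7 at 42473386 to 42505740, had 148, 490 and 410 normalized counts in Dep, against 785, 634.5 and 552 in Ctl. The groups did not overlap, with Dep lower, and the log2 fold of -1.07 ± 0.47 (SE; limma, unadjusted p = 0.0472, adjusted p = 0.9997) was -0.54 without Dep 1. With the replicate number as a block its unadjusted p was 0.0505 (limma). The coding sequence of 2610021A01Rik is 91.5% identical to it. Zfp952 (ENSMUSG00000053390), on chromosome 17 at 32993129 to 33005457, had 464, 403 and 194 normalized counts in Dep, against 231, 118 and 98.0 in Ctl. Dep 3 lay below Ctl 1, so these groups overlapped, and the log2 fold was 1.25 ± 0.54 (SE; limma, unadjusted p = 0.041, adjusted p = 0.9997).

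**Figure D2:**
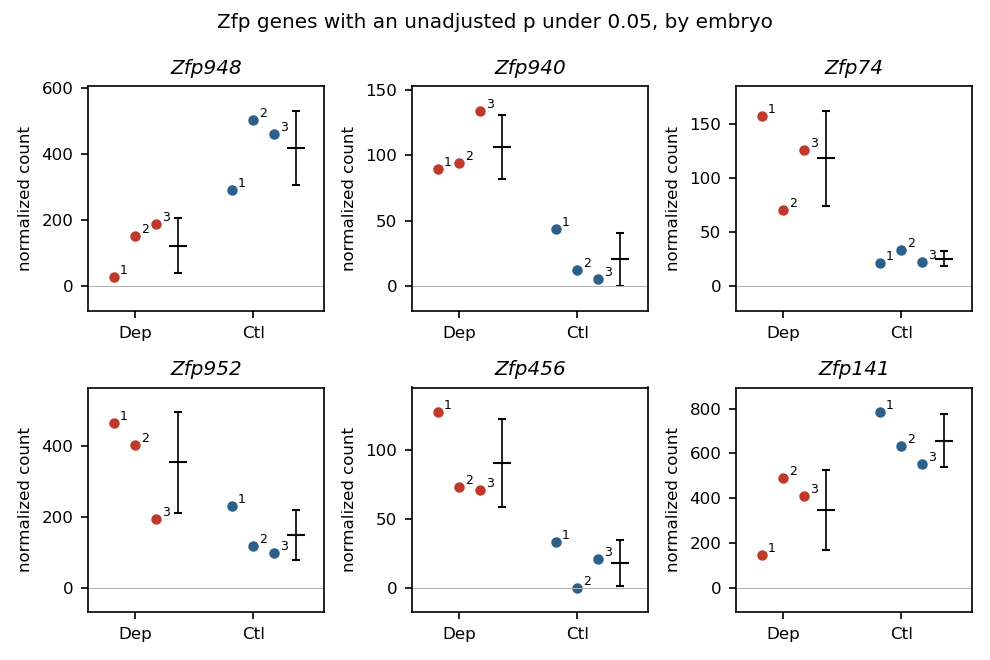
Normalized count of the 6 Zfp genes under an unadjusted p of 0.05, with 1 point per embryo numbered by replicate, Dep in red and Ctl in blue, and black marks for the mean ± SD of 3 embryos. Zfp948 and Zfp141 are lower in every Dep embryo than in any Ctl embryo, Zfp940, Zfp74 and Zfp456 are higher, and for Zfp952 Dep 3 lies among the Ctl embryos.

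Other members whose groups did not overlap had larger unadjusted p in the main limma fit. Without its mean-variance trend this order changed in part (limma). Zfp608 and Zfp873 then had an unadjusted p of 0.0392 and 0.0417, against 0.0468 for Zfp456 and 0.08 for Zfp141. Those of Zfp948, Zfp940 and Zfp74 stayed smaller. Higher in Dep were Zfp970, Zfp719, Zfp873, Zfp654, Zfp808, Zfp3 and Zfp758, with log2 folds from 0.47 for Zfp758 to 1.05 for Zfp970. Without Ctl 3 the value of Zfp970 was 0.55, and without Ctl 1 those of Zfp758 and Zfp3 were 0.29 and 0.46, while that of Zfp3 was 0.71 with all embryos. Zfp808, at 0.49, had 0.25 without Dep 1. Zfp808, of 22 predicted fingers, had 930.0, 590 and 546 normalized counts in Dep, against 505, 401 and 534 in Ctl, so that Dep 3 lay just above Ctl 3. Zfp654 had 319, 317 and 343 in Dep, against 179.9, 185 and 275 in Ctl. Its Dep embryos were nearly level. Lower in Dep were Zfp638, Zfp946, Zfp367, Zfp775 and Zfp324, with log2 folds from -1.07 for Zfp324 to -0.45 for Zfp775, and Zfp608. Without Dep 1 the value of Zfp324 was -0.58, without Dep 2 those of Zfp775 and Zfp367 were -0.26 and -0.33, and without Dep 3 that of Zfp946 was -0.40. With all embryos Zfp367 and Zfp946 had -0.57 and -1.02. Zfp608 had 0, 18.9 and 12.6 normalized counts in Dep, against 60.4, 71.8 and 30.01 in Ctl. The groups did not overlap, and its log2 fold was -2.999, or -1.65 without Dep 1. Over these members and the 5 non-overlapping ones above, unadjusted limma p ran from 0.012 to 0.438, with an adjusted p of 0.9997 for each.

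Members known to repress retroelements or guard imprinted genes form a list of 6 KRAB genes, all with values. Of these 1 was higher and 5 were lower in Dep. The median log2 fold was -0.56, and 0 were under an unadjusted p of 0.05 (limma), against 1.85% of all genes. Without Dep 1 the median was -0.052 with 2 higher, and without Dep 2 it was -1.21. With all embryos it was -0.13 after quantile normalization and -0.11 in edgeR. The size of that median thus depended on the embryos and on the setting.

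Zfp568 represses a placental transcript of the growth factor gene Igf2. It was the most abundant of the 6 at 24.6 RPKM, with 3960, 2070 and 3816 normalized counts in Dep, against 4154, 3291 and 2674 in Ctl. The ranges overlapped. Zfp809 silences murine leukaemia virus and related endogenous proviruses through their primer binding site. It had 562, 879 and 559.5 normalized counts in Dep, against 464, 814 and 995 in Ctl, also overlapping. Zfp932, a repressor of endogenous retroviruses in embryonic stem cells, had 963, 726 and 1020 in Dep, against 1133, 688 and 793 in Ctl. Its coding sequence is 96.9% identical to that of Gm15446. These 3 genes lay within 1.5-fold, with log2 folds of -0.075, -0.15 and 0.069.

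The other members of the list had lower levels and wider spread. Zfp445, which takes part in the upkeep of imprints, had 25.5, 198 and 126 normalized counts in Dep, against 328, 163 and 263 in Ctl. Dep 1 was lowest, Dep 2 lay above Ctl 2, and the log2 fold was -1.47 ± 0.75 (SE; limma, unadjusted p = 0.0792, adjusted p = 0.9997). Zfp708, which binds a class of retroelements, had 0, 90.4 and 116 in Dep, against 209.5, 259.7 and 22.1 in Ctl. Zfp819, linked to retrotransposon silencing in pluripotent cells, had 0, 83.4 and 64.0 in Dep, against 86.4, 35.1 and 12.4 in Ctl. Both were at 0 in Dep 1 and their groups overlapped.

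Stem cell and early embryo factors were close between groups. Of 6 genes 5 had values, 4 of them with a higher mean log2 level in Dep, and the median log2 fold was 0.22. Zfp281, a transcription factor of embryonic stem cells that helps them leave the naive state, had 1934, 1032 and 1711 normalized counts in Dep, against 1504, 1004 and 1053 in Ctl. Zfp143, a promoter-binding activator that in embryonic stem cells regulates Nanog, had 1476, 988 and 804 in Dep, against 1034, 985 and 732 in Ctl. Zfp296, known from embryonic stem cells and germ cells, had 855, 1420 and 939 in Dep, against 768, 1726 and 477 in Ctl. In each case the groups overlapped, and for Zfp296 the Ctl embryos spanned the wider range. Zfp217 and Zfp462 had log2 folds of 0.063 and -0.0048. The 5 genes lay within 1.5-fold, as did 75.9% of all genes. Of the 5, 0 were under an unadjusted p of 0.05 (limma), against 1.85% of all genes.

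Partners of chromatin complexes had 6 of 8 genes with values, of which 2 were higher and 4 lower in Dep (median log2 fold -0.086). Without Dep 1, 4 were higher and 2 lower. Zfp644, which works with the histone methyltransferases Ehmt1 and Ehmt2, had 675, 677 and 636 normalized counts in Dep, against 782, 440.0 and 735 in Ctl, with overlap. Zfp592 and Zfp687, which occur in a complex with Zmynd8, had log2 folds of -0.086 and -0.21. Zfp410, an activator of the chromatin remodeller gene Chd4, had a log2 fold of 0.20, and Zfp277, a partner of Polycomb proteins, -0.085. Zfp335, found with H3K4 methyltransferase complexes, had 0, 52.6 and 103 in Dep, against 41.4, 170 and 27.4 in Ctl, so its log2 fold of -1.74 ± 1.67 (SE) carries the 0 of Dep 1.

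Most of the RNA, ribosome and ubiquitin factors were lower in Dep, mostly by small amounts. All 12 genes had values, 1 with a higher and 11 with a lower mean log2 level in Dep, where 6288 of 12149 genes were lower. The median log2 fold was -0.16, against -0.017 over all genes. Over the quantile, TMM, edgeR and DESeq2 scalings 10 or 11 were lower, and with 1 embryo left out 8 to 10 were. These runs reuse the same embryos, and the list was written with earlier results known, so they do not test the direction. None of the 12 was under an unadjusted p of 0.05 (limma, smallest 0.109), against 1.85% of all genes, and 0 were by edgeR or DESeq2. Of the 12, 11 lay within 1.5-fold (91.7%, against 75.9% of all genes).

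Zfp638, a nuclear RNA-binding protein that also silences unintegrated retroviral DNA, had 910.5, 1214 and 1354 normalized counts in Dep, against 1679, 1848 and 1364 in Ctl. It was the only gene of these 12 whose groups did not overlap (8.33%, against 6.9% of all genes), with Dep 3 just below Ctl 3. Its log2 fold was -0.50 ± 0.28 (SE; limma, unadjusted p = 0.109, adjusted p = 0.9997). Zfp207, a spindle and splicing factor, had 5284, 5463 and 4734 in Dep, against 5941, 5741 and 4500 in Ctl. Zfp598, the ubiquitin ligase of collided ribosomes, had 574, 602 and 1466 in Dep, against 703, 819 and 997 in Ctl. Both overlapped between groups. Zfp830, which mouse embryos need for survival of the inner cell mass, was the 1 higher gene, with 624, 1114 and 835 in Dep, against 714, 655 and 643 in Ctl. Dep 1 lay below all Ctl embryos, and Dep 2 and Dep 3 above them.

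For the rest of this list the groups overlapped. Zfp36, which destabilises AU-rich mRNA through fingers of another type, had a log2 fold of -0.36. Zfp346, which binds double-stranded RNA, had -0.22, and the SUMO ligase Zfp451 had -0.13. Zfp326, of an elongation and splicing complex, had -0.25. Zfp91, a ubiquitin ligase, and Zfp106, an RNA-binding protein of motor neurons, had -0.18 and -0.063. For the factors named from ribosome maturation in yeast, Zfp622 had -0.099 and Zfp593 -1.30 ± 1.15 (SE), with 4.86, 35.8 and 47.2 normalized counts in Dep, against 40.2, 29.2 and 123 in Ctl. The low Zfp593 counts overlapped between groups.

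**Figure D3:**
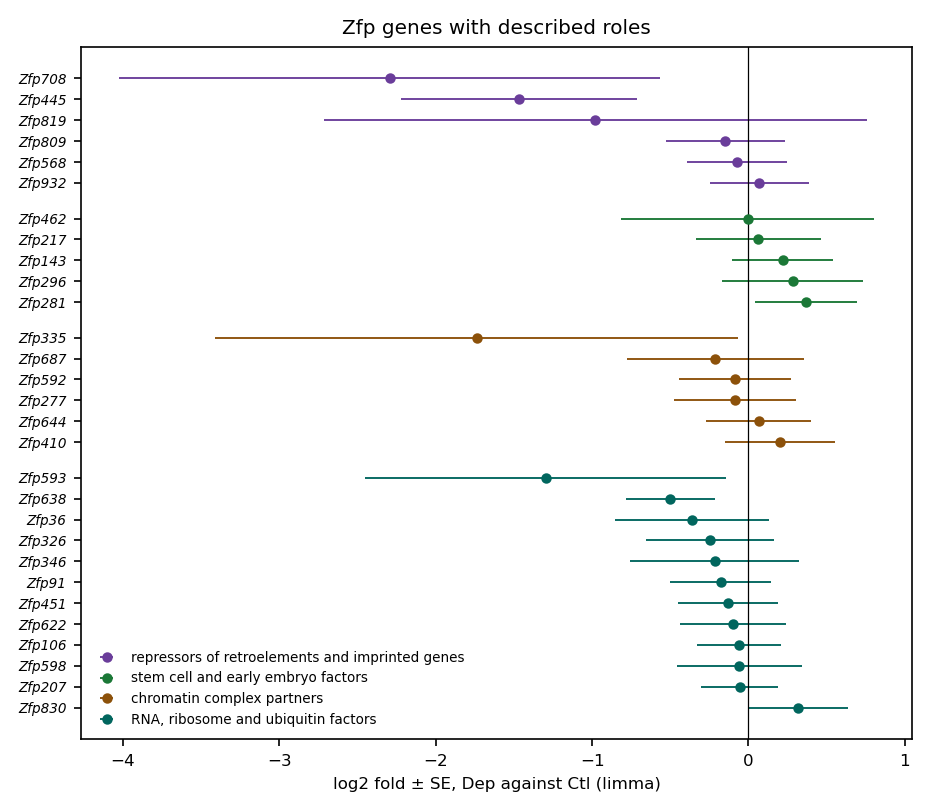
Log2 fold of Dep against Ctl with its standard error (limma, horizontal axis) for the Zfp genes of the 4 role lists, grouped by list and sorted within it. Points far to the left, Zfp708, Zfp445, Zfp335 and Zfp593, have wide error bars, and Zfp830 is the 1 gene of its list to the right of 0.

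RNA of the partners that KRAB factors work with was close between groups. Its median was 17.0 RPKM, against 6.02 over all genes, and single partners ran from 0.839 to 208. Of 35 partner genes, all with values, 18 had a higher and 17 a lower mean log2 level in Dep. The median log2 fold was 0.0018, and 35 lay within 1.5-fold, against 75.9% of all genes. Of the 35, 0 were under an unadjusted p of 0.05 (limma), against 1.85% of all genes. edgeR and DESeq2 also put 0 genes of this list and of the 4 role lists under that p. Trim28, the co-repressor itself, had 4975, 5865 and 6384 normalized counts in Dep, against 5288, 6275 and 4824 in Ctl. Setdb1 had 1105, 923.5 and 1933 in Dep, against 1289, 1183 and 1299 in Ctl. Both genes overlapped between groups.

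Groups did not overlap for 3 partners (8.57%, against 6.9% of all genes). Cbx1, a heterochromatin protein, had 2905, 1827 and 1671 normalized counts in Dep, against 1513, 1664 and 1574 in Ctl, with Dep 1 far above the rest. Morc3, which acts in silencing of endogenous retroviruses, had 1270, 1664 and 1526 in Dep, against 1982, 1953 and 1949 in Ctl. Trim33, a relative of Trim28, had 1499, 1643 and 1497 in Dep, against 2463, 1785 and 2446 in Ctl. The Morc3 and Trim33 values were lower in every Dep embryo, with log2 folds of -0.41 ± 0.25 and -0.51 ± 0.26 (SE; limma, adjusted p = 0.9997 for each).

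The members are strongly clustered in the genome. Successive members less than 1 Mb apart formed 16 clusters of at least 5 genes, which hold 147 of the 280 members, 118 of them with a KRAB motif. Of the 133 members outside these clusters, 49 had the motif. Chromosome 7 holds 71 members. The largest cluster lies on chromosome 17 at 21008903 to 23599487, with 22 members that all carry the motif. Its median was 3.59 RPKM, and its median log2 fold was -0.16, with 10 higher and 12 lower in Dep, or 0.0015 with 11 higher after quantile normalization. Groups did not overlap for 4 of its members (18.2%, against 6.9% of all genes), 1 higher and 3 lower, where the shares over all genes were 3.09% and 3.8%. The median within-group SD in this cluster was 0.997 on the log2 scale.

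The cluster on distal chromosome 4 was the most highly expressed one. It spans 145510759 to 147848366 and holds 18 KRAB members, which in mice belong to a region whose loss is known to release endogenous retroviruses. Its median was 12.6 RPKM, against 2.83 over all Zfp genes, and 16 of the 18 members exceeded 2.83. Zfp978, Zfp985, Zfp979 and Zfp984, with 53.0, 42.2, 31.9 and 30.9 RPKM, were 4 of the 8 most abundant Zfp genes. The other 4 were Zfp706, Zfp207, Zfp296 and Zfp830, which have no KRAB motif.

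Zfp978 (ENSMUSG00000078497), at 147361303 to 147391004 on the plus strand, has 3 predicted fingers. It had 60.1, 60.7 and 46.2 RPKM in Dep, against 58.4, 54.4 and 38.5 in Ctl. Zfp979 (ENSMUSG00000066000), at 147611937 to 147642513 on the minus strand, also has 3, and had 37.9, 32.7 and 28.0 RPKM in Dep, against 31.3, 35.4 and 26.3 in Ctl. For both genes the embryos numbered 3 were lowest in each group and the groups overlapped. Zfp985 (ENSMUSG00000065999) and Zfp984 (ENSMUSG00000078495), with 10 and 11 predicted fingers, had log2 folds of 0.085 and 0.37. Zfp984 reached 49.4 RPKM in Dep 1, above the 21.5 to 32.3 RPKM of Ctl.

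Across the chromosome 4 cluster, 11 members were higher and 7 lower in Dep, with log2 folds from -0.48 to 0.42. All 18 lay within 1.5-fold, groups overlapped for each of them, and 0 were under an unadjusted p of 0.05 (limma, smallest 0.215). Over all genes 75.9% lay within 1.5-fold, groups did not overlap for 6.9%, and 1.85% were under that p. The median within-group SD was 0.374 on the log2 scale, against 0.644 over all Zfp genes. Of the 18 members 16 have a near-identical copy, another gene whose coding sequence is at least 90% identical over at least 50% of its length. Zfp991 and Zfp993 are 99.8% identical. Values of single genes in this cluster therefore depend on how the authors' counting treated reads that fit several genes, and the part of this in the narrow spread was not tested.

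**Figure D4:**
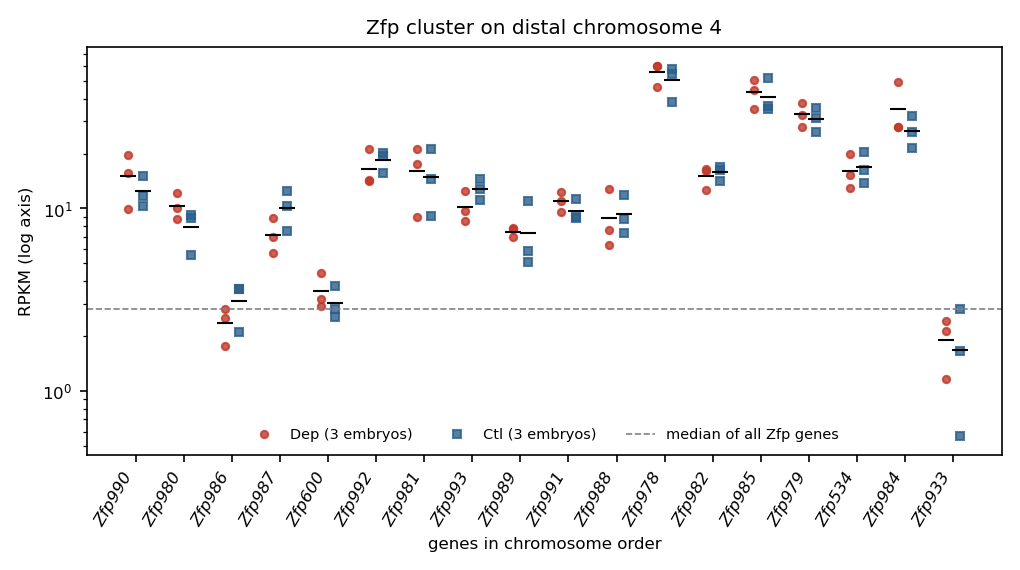
RPKM (vertical log axis) of the 18 Zfp genes of the distal chromosome 4 cluster in chromosome order, with 1 point per embryo, Dep in red left of Ctl in blue, a black mark for the mean of each group and a dashed line at 2.83, the median of all Zfp genes. Zfp978, Zfp985, Zfp979 and Zfp984 are the highest, and the embryos of both groups overlap for every gene.

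Over all 280 members, 39 have a copy at that identity and 24 one of at least 95%, and 38 of the 39 carry a KRAB motif. Without them 241 members remained, with 0 called, 4 (1.66%) under an unadjusted p of 0.05, against 1.85% of all genes, and a median log2 fold of -0.078 (limma). Members with such a copy had a median of 7.41 RPKM, and members without one 2.33. Of the 39, 16 lie in the chromosome 4 cluster, whose median was 12.6 RPKM. How the authors' counting treated shared reads is not known, and its part in these levels was not tested.

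The balance between KRAB members and the others varied from embryo to embryo within both groups. The mean log2 level of the 167 KRAB members was 7.11, 7.55 and 7.34 in Dep 1, 2 and 3, against 7.50, 7.47 and 7.15 in Ctl 1, 2 and 3. That of the 113 others was 7.57, 8.01 and 8.34 in Dep, against 7.91, 8.08 and 8.24 in Ctl. The others thus exceeded KRAB members by 0.46, 0.457 and 1.0 on the log2 scale in Dep, against 0.407, 0.61 and 1.1 in Ctl. The embryos numbered 3 had the widest gap in each group, and the groups overlapped.

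Within Ctl, embryo 3 was the lowest of the group for 47.9% of KRAB members and for 33.8% of all genes. Within Dep, embryo 3 was the highest for 49.6% of members without the motif and for 34.6% of all genes. Leaving out members with a near-identical copy gave gaps of 0.856, 0.702 and 1.24 in Dep, against 0.737, 0.842 and 1.3 in Ctl. Embryo 3 again had the widest gap of each group. Mitochondrially encoded transcripts took 3.71%, 3.05% and 4.0% of the reads in Dep, against 7.02%, 3.85% and 7.04% in Ctl, so embryo 3 had the highest share of each group, with Ctl 1 nearly level. The part of this share in the gap was not tested.

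**Figure D5:**
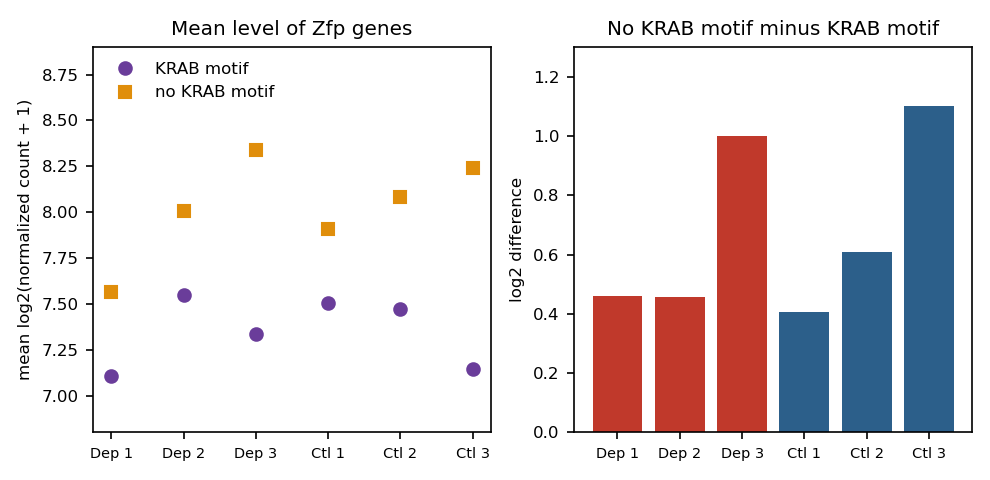
Left, mean log2(normalized count + 1) of Zfp genes with (purple) and without (orange) a KRAB motif in each embryo, on an axis that does not start at 0. Right, the difference of these means as bars, Dep in red and Ctl in blue, with Dep 3 at 1.0 and Ctl 3 at 1.1 above the 0.407 to 0.61 of the other embryos.

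Members at 0 reads in at least 1 embryo numbered 18 (6.43%), against 6.86% of all genes, and for 11 of them Dep 1 was the only embryo at 0. Dep 1 was the lowest of the 6 embryos for 31.1% of Zfp genes and for 29.7% of all genes. Besides Zfp708, Zfp335 and Zfp456, described above, those of highest mean were Zfp760, Zfp184 and Zfp113. Zfp760 had 0, 119 and 78.4 normalized counts in Dep, against 146, 81.0 and 154.5 in Ctl. Zfp184 had 0, 101 and 119 in Dep, against 1.18, 79.3 and 91.8 in Ctl, so that embryo 1 was near 0 in both groups. Zfp113 had 47.4, 56.6 and 98.6 in Dep, against 105, 60.1 and 0 in Ctl. At these levels an embryo at 0 sets most of a log2 fold, and the zeros fell in embryos of both groups.

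Other families named for zinc fingers had similar values. Of 36 Zbtb genes, whose BTB domain joins proteins in pairs, 16 were higher in Dep and the median log2 fold was -0.076. Of 17 Zscan and Zkscan genes, which carry a SCAN domain, 8 were higher and the median was -0.010. Of 19 Zfp genes with a letter after the number, 10 were higher and the median was 0.055. Under an unadjusted p of 0.05 (limma) there were 0, 1 and 0 genes in these families, where 1.85% of all genes were. For the lettered Zfp genes it was 2 after quantile normalization, with library weights and without Dep 3. Of 12149 genes, 299, 399 and 576 were under that p in these settings. Their median levels were 2.22, 2.04 and 3.45 RPKM, beside 2.83 for the Zfp genes. Over the main fit and the quantile, TMM, edgeR and DESeq2 scalings, the median ranged from -0.076 to 0.053 for Zbtb genes. For Zscan and Zkscan genes it ranged from -0.010 to 0.24, so the direction of both families is not fixed either.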

How the data were processed

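Per the labels' protocols, cDNA of lysed single blastocysts was prepared by the SMART-Seq v4 kit, which does not mark strand. The submitters' processing notes name mm10 as the build and HISAT2 and Cufflinks 2.2.1 as tools. Which program and gene models gave the counts is not given in the sources used here. Each gene and library has a deposited signal value, a read count divided by a size factor. Per the file headers the table also holds a mean, a log2 fold change, its standard error, a test statistic (score) and p-values before and after adjustment. Dividing the values by the step of each library gave whole reads for 100% of values (tolerance 0.01). The step of Dep 2 was 0.993. The lowest mean was 14.2, so the depth given is that of listed genes.

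GENCODE M21 (GRCm38, the assembly that mm10 names) gave names, positions and exon lengths for 11829 of 12149 identifiers, and 320 did not match. RPKM was computed from recovered reads and exon lengths. Fingers (C, 2 to 4 residues, C, 12 residues, H, 3 to 5 residues, H) and the KRAB motif (2 short patterns for the start and end of the A box, set with member sequences in view) were read from the longest translated coding sequence. Near-identical copies were found with BLAST 2.17.0.

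The test was limma 3.58.1 with a mean-variance trend on log2(normalized count + 1) over all genes, Benjamini-Hochberg adjustment and a threshold of 0.05. For low genes a fold on this scale depends on the added 1 and on any embryo at or near 0. The design foresaw normalized values or raw counts, and the table holds normalized values. Alternatives on recovered reads were edgeR 4.0.16 and DESeq2 1.42.0, beside the pseudocount, scaling, a minimum mean of 100, library weights, a replicate block and each embryo left out. The main limma fit alone was also run on simulated counts, and that outcome is not given here. R was 4.3.3 and Python 3.11.15. Reads carry no molecular identifiers, so they are not independent molecules, and reads of overlapping genes cannot be told apart without strand.

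Named members were those past the threshold, up to 10 higher and 10 lower of smallest p without overlap between groups and with a higher group that averages at least 50 normalized counts, the 8 of highest RPKM, the role lists, and up to 6 at 0 in a library. Only 8 lower members met the rule. Zfp952, Zfp619, Zfp420, Zfp27, Zfp455, Zfp991, Zfp993 and the partners Cbx1, Morc3 and Trim33 were named after their values were seen. Members and lists were chosen with earlier results of these data known. Across all genes, embryos of the same number deviated together from their group means, though weakly (r = 0.133, 0.151 and 0.129). Over the Zfp members r was 0.1, 0.13 and 0.0399, and for Dep 3 with Ctl 2 it was 0.0815. A block on the number was therefore run only as an alternative, and the main test was unpaired. The labels themselves state no pairing.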

Additional observations from a re-analysis of the deposited data

How the results depend on the processing

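No Zfp gene passed the adjusted threshold under any setting run (0 in each). The replicate block, which pairs same-numbered embryos, changed no call, with 0 called and 6 under an unadjusted p of 0.05, where 3.46% of all genes were. These 6 are not the 6 found without the block: Zfp141 was no longer among them and 1 member without a KRAB motif was. The median log2 fold of Zfp genes, -0.065, was 0.035 after quantile normalization, 0.0018 with library weights, 0.012 in edgeR and 0.015 in DESeq2, and ran from -0.0936 to 0.0571 with 1 embryo left out. The cause was not tested. Without Dep 1, Dep 2 or Ctl 1 it was above 0. The count of members without overlap between groups, 20, was 12 of 211 at a minimum mean of 100, where fewer genes are tested. It ran from 41 to 54 with 1 embryo left out, since fewer embryos overlap less. Shares over all genes are not given for these settings. Left-out embryos moved the count under an unadjusted p of 0.05 over 4 to 11, where 122 to 576 of 12149 genes were under it. Without Dep 2 it was 11 members, where 349 of 12149 genes were. The count of members higher in Dep ran from 124 to 151. The 18 named members whose groups do not overlap kept their direction, though not their size, in 155 values under other settings of the same 6 embryos. With 1 embryo left out all 108 values kept it too. That outcome was fixed by the choice of members without overlap, so it tests nothing. In edgeR the log2 fold of Zfp456 was 2.32, against 3.28 in limma. Identity between proteins was not used as a setting (not run), and members without a near-identical copy, an alternative chosen after seeing the data, took its place. Low counts limit the precision: members under 100 normalized counts had a within-group SD of 1.3 on the log2 scale.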
